A study of Mus musculus with 2 samples.

Results

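The genes for semaphorins, ephrins, slits and netrins, and for the plexin, neuropilin, Eph, Robo, UNC5, DCC and neogenin receptors that bind them, were examined in mouse embryonic fibroblasts (MEFs) with and without Bmi1. The 51 genes, 27 ligands and 24 receptors, are a part of these families and were chosen with earlier results of these data known. A further 21 family members were read as a list of their own. Of the 51, 50 were found among the 18194 genes to which at least 1 probe set of the array was assigned alone. Ephb2 had no such probe set under its symbol and was not analysed here. Each gene was represented by its brightest probe set over both arrays.

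RNA came from 1 culture of Bmi1 wild-type MEFs and 1 culture of Bmi1 null MEFs, with 1 array for each. Bmi1 is a subunit of the Polycomb repressive complex 1 (PRC1), which places ubiquitin on histone H2A. The embryos were littermates. Both lines are of the C57BL/6 strain and labelled male, both were immortalised with TBX2, a T-box repressor, so that the control carries it too, and neither was treated; both grew in DMEM with serum. With 1 array per genotype there is no replicate and no test, and genotype, line, culture and array cannot be told apart. The age of the embryos was not given in the sources used here.

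Guidance cues were named for steering growing axons, but they also direct migrating fibroblasts, neural crest and blood vessel cells. Semaphorins are read by plexins, which act as GTPase-activating proteins, and the secreted class 3 semaphorins mostly need a neuropilin as co-receptor. Ephrins stay on the cell surface and bind Eph receptor tyrosine kinases, and both partners can signal into their own cell. Secreted slits act through Robo receptors, and netrins attract through DCC or neogenin and repel through UNC5 receptors.

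Signals are linear MAS5 intensities, scaled by the authors so that the trimmed mean of each array was 500. Signals below 100, which is 0.2 times that mean, were raised to 100 before ratios were taken, and a gene below this floor on both arrays is called not measured. Ratios are null over wild-type, on the log2 scale where stated, and a 2-fold difference serves as a descriptive threshold only. Where only 1 array was above the floor, the fold is a bound, the bright signal over the floor, and is written with "at least". Between probe sets of 1 gene that were above the floor on both arrays, the log2 ratio had an SD of 0.30 over 11916 pairs. This SD was 0.34 where the dimmer probe set of the pair was at 100 to 500, 0.26 at 500 to 2000 and 0.17 at 2000 or more, which covers probe set error and no culture-to-culture error.

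Bmi1 had a signal of 9933 on the wild-type array and 2146 on the null array at its brighter probe set, and of 931 and 831 at the other. Where these probe sets lie relative to the deleted part is not given in the sources used here. Tbx2, the mouse gene of the factor used for immortalisation, was below the floor on both arrays, at 23.2 and 8.03, and whether its probe set reads the introduced construct is not given in the sources used here. At their brightest probe sets, the Y-linked genes Eif2s3y and Kdm5d were at 1683 and 712 in wild-type cells. In null cells they were below the floor, at 23.3 and 15.3, although both lines are labelled male. This difference between the lines cannot be told apart from genotype either. All 12 fibroblast markers were measured, with a summed signal of 102202 on the wild-type array and 126053 on the null array; Lum, Col3a1 and Col1a1 were more than 2-fold brighter in null cells and Thy1 was at least 3.75-fold lower. Of 13 matched neural and glial markers, 8 were measured. The summed signal of all 13 was 1588 on the wild-type array and 3739 on the null array, and they differed mainly through Map2, at 243 and 2132. This and the sums below take in every matched marker, measured or not. Mbp was at 492 and 495, Gfap at 102 and 106 and Sox10 at 126 and 169. Nefm was at 13.96, below the floor, and 351, at least 3.51-fold higher, and Tubb3 at 330.3 and 122, 2.70-fold lower, while Snap25, Stmn2 and Syp were below the floor on both arrays. Endothelial markers summed to 928 and 912, with 6 of 10 measured and Pecam1, Tie1 and Vwf below the floor on both arrays. Cdh5 was at 208 and 29.2, at least 2.08-fold lower, while Eng was at 141 and 254, 1.81-fold higher. Kdr was at 150 and 206 and Flt1 at 244 and 208. Mesothelial markers, 4 of 8 measured, summed to 3384 and 11902: Gpm6a was at 4.52 and 8828, at least 88.3-fold higher, and Upk3b at 188 and 1693, 9.01-fold higher, while Msln was at 3006 and 1031, 2.92-fold lower, with Wt1, Krt8, Krt18 and Krt19 below the floor on both arrays. Macrophage markers, 3 of 6 measured, summed to 1568 and 961, with Ptprc, Cd68 and Lyz2 below the floor on both arrays. Cd14 was at 1012 and 453, 2.24-fold lower, Csf1r at 244 and 213, and Adgre1 at 171 and 118. The part of these differences in the results on guidance genes was not tested, and fewer cells of a type cannot be told apart from less RNA per cell.

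Of the 50 guidance genes with a probe set, 46 were measured, 37 above the floor on both arrays and 9 on 1 array. At least 2-fold higher in null cells were 9 of the 46 (19.6%), where 5.73% of all 11766 measured genes were. At least 2-fold lower were 5 of the 46 (10.9%), where 5.16% of all measured genes were. The members were chosen with earlier results of these data known, so these shares cannot test whether the families differ from other genes. Of the 7 further family members measured, 0 differed at least 2-fold, bounds counted at the bound. The higher genes were Sema3a, Sema3c, Sema3d, Nrp1, Epha7, Ephb6, Slit2, Robo1 and Unc5c, and the lower ones Sema5a, Sema6d, Nrp2, Slit3 and Ntn1. Under every alternative processing run, 9 of the 14 stayed past 2-fold, while Epha7, Robo1, Sema6d, Slit3 and Ntn1 did not under at least 1. Some of these settings leave the ratio of a gene above the floor as it was. The median log2 ratio was 0.25 over the 46 guidance genes, 29 of them above 0, and 0.0060 over all measured genes. For the 9 genes above the floor on 1 array the ratio is a bound and its sign follows from which array that was. Of the lower genes, Slit3 and Ntn1 are such bounds. Not measured were Sema4a (42.1 on the wild-type array and 11.3 on the null array), Plxnc1 (38.3 and 37.5), Epha5 (42.0 and 47.8) and Robo2 (21.5 and 2.59).

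**Figure D1:**
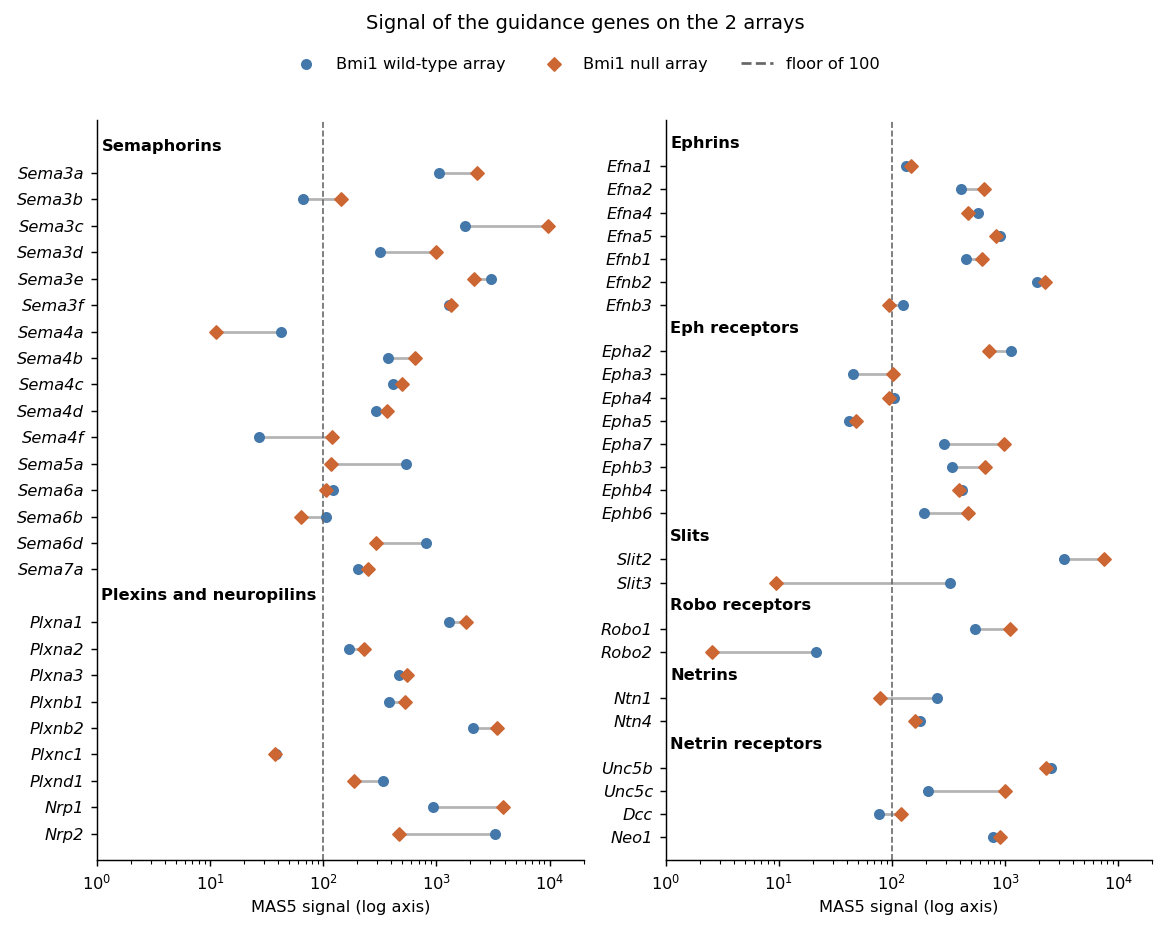
Signal of each of the 50 guidance genes on the Bmi1 wild-type array (circles) and the Bmi1 null array (diamonds), on a logarithmic axis of linear intensity, grouped by system and role; the dashed line is the floor of 100 and the grey bars join the 2 arrays. The widest gaps above the floor were those of Nrp2 (3260 to 463) and Sema3c (1790 to 9741).

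Of the 6 secreted class 3 semaphorins, 3 passed 2-fold towards higher signal without Bmi1, where 5.73% of all measured genes did. A log2 ratio above 0 was found for 5, where 50.6% of all measured genes had one, and the class median was 0.82. Of those 5, Sema3f was just below 0 with the mean of its probe sets and at -0.15 without suffixed probe sets, where Sema3b had no ratio. Sema3c, which acts on neural crest and heart outflow cells, had a signal of 1790 on the wild-type array and 9741 on the null array, 5.44-fold higher (log2 ratio 2.44). Its other probe set read 190 and 1050, a log2 ratio of 2.47. Sema3d was at 317 on the wild-type array and 984 on the null array, 3.11-fold higher, with no other measured probe set. Sema3a, the growth cone collapsing factor that binds neuropilin-1, was at 1051 and 2283, 2.17-fold higher, and its other 2 probe sets gave log2 ratios of 1.16 and 1.21. For these 3 genes every measured probe set was thus higher in null cells.

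The other class 3 genes were closer between the arrays, Sema3b only as a bound. Sema3e, which can bind plexin-D1 without a neuropilin, was at 3050 on the wild-type array and 2161 on the null array, 1.41-fold lower. Its other 3 probe sets were lower too, with log2 ratios of -1.20, -0.86 and -0.85, so that 1 of the 4 passed 2-fold. Sema3f, a ligand of neuropilin-2, was at 1297 and 1358, within 1.05-fold, and its other probe sets gave log2 ratios of 0.07 and -0.15. Sema3b was below the floor in wild-type cells (66.5) and at 143 in null cells, at least 1.43-fold higher.

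Sema3d, Sema3a, Sema3e and Sema3c lie in this order on mouse chromosome 5 in the RefSeq table of assembly GRCm38.p6, among 22 protein-coding genes from the first to the last. Of the 18 other genes in this stretch 4 were measured, and 0 were at least 2-fold higher. One was lower, Hgf, the gene for hepatocyte growth factor, at 390 on the wild-type array and 89.6 on the null array, at least 3.90-fold. The 3 others, Speer3, Cacna2d1 and Speer4f1, had log2 ratios of 0.51, -0.40 and 0.33. Sema3d and Sema3a, both higher, are thus neighbours, while Sema3e and Hgf, both lower, lie between Sema3a and Sema3c.

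The promoter windows of Sema3c and Sema3e are shown because these paralogues on chromosome 5 differed between the arrays in opposite directions. Each is the 250 bases before the RefSeq start on the plus strand of GRCm38.p6, at chr5:17574566-17574815 for Sema3c and chr5:14025026-14025275 for Sema3e, with CG dinucleotides in capitals. The Sema3c window held 39 of them at 78.4% G+C, and the Sema3e window 7 at 48%.
Sema3c: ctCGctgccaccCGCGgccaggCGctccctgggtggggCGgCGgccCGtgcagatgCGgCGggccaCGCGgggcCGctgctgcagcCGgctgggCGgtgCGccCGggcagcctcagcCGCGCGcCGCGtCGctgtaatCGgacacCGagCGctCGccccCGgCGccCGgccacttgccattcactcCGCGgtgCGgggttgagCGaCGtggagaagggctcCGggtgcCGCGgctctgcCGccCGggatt
Sema3e: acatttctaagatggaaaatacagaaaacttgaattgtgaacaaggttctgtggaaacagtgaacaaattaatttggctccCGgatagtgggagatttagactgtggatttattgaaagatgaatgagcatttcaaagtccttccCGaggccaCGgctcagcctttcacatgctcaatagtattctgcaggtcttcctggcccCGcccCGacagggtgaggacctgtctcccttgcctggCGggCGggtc

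The membrane-bound semaphorins were divided by class. All 4 measured class 4 genes were higher in null cells, by less than 2-fold where both arrays were above the floor. Sema4b was at 375 on the wild-type array and 644 on the null array, 1.72-fold higher, Sema4c at 413 and 498, and Sema4d, the plexin-B1 ligand, at 290.0 and 366. Sema4f was below the floor in wild-type cells (27.1) and at 119.7 in null cells, at least 1.20-fold higher. Without a floor its log2 ratio was 2.14, so its place within 2-fold rests on the floor. Sema7a, which is anchored by a lipid and can bind integrins, was at 201 and 248, 1.23-fold higher.

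The 4 measured genes of classes 5 and 6, transmembrane like class 4, were lower in null cells at their brightest probe set. Sema5a, which carries thrombospondin repeats, was at 541 on the wild-type array and 116 on the null array, 4.65-fold lower. Of its other probe sets, 1 read 258 and 26.7, a bound of at least 2.58-fold lower, 1 read 106 and 32.1, and 1 was not measured. Sema6d was at 817 and 295, 2.77-fold lower, but its other 2 measured probe sets read 179 and 128 (log2 ratio -0.48) and 123 and 139 (0.17), so that its probe sets did not share a direction. Sema6a was at 121 and 105, a log2 ratio of -0.21. Sema6b was at 106 in wild-type and at 63.8 on the null array, under the floor, at least 1.06-fold lower.

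The 2 neuropilins, which bind class 3 semaphorins and VEGF, stood on opposite sides. Nrp1 had a signal of 933 on the wild-type array and 3897 on the null array, 4.18-fold higher. Other Nrp1 probe sets read 297 and 1620 (log2 ratio 2.45) and 241 and 1390 (2.53), and the last read 73.1, below the floor, and 111. Nrp2 was at 3260 on the wild-type array and 463 on the null array, 7.04-fold lower, the lowest ratio of the 46 guidance genes. Its other 2 measured probe sets gave log2 ratios of -3.16 and -2.58. All measured probe sets of each neuropilin, the bound included, shared its direction.

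Plexins, the signalling receptors, differed by less than 2-fold in all 6 measured genes, with a median log2 ratio of 0.47. Plxna1 was at 1284 on the wild-type array and 1815 on the null array, Plxna2 at 167 and 231, and Plxna3 at 471 and 551. Plxnb1, the receptor for Sema4d, was at 378 and 528, and Plxnb2 at 2120 and 3426, 1.62-fold higher. Plxnd1, the Sema3e receptor, was the exception at 336 and 186, 1.80-fold lower. Of the receptor and ligand pairs named here, Nrp1 and Sema3a were thus both at least 2-fold higher, Plxnb1 and Sema4d both higher and Plxnd1 and Sema3e both lower by less than 2-fold, and Nrp2 at least 2-fold lower with Sema3f within 1.05-fold.

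The promoter windows of Nrp1 and Nrp2 are shown for the same reason, as the receptor paralogues with the widest difference in opposite directions. They are the 250 bases before the start on the plus strand of GRCm38.p6, at chr8:128358823-128359072 for Nrp1 and chr1:62703067-62703316 for Nrp2, with CG dinucleotides in capitals. Nrp1, higher in null cells, held 11 CG dinucleotides and Nrp2, lower in null cells, 32, the reverse of the order seen for Sema3c and Sema3e.
Nrp1: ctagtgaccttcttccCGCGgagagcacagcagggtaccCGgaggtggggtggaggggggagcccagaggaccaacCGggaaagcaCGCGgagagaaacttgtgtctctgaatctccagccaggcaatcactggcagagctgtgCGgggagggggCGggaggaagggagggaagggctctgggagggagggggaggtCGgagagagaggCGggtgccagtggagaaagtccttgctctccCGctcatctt
Nrp2: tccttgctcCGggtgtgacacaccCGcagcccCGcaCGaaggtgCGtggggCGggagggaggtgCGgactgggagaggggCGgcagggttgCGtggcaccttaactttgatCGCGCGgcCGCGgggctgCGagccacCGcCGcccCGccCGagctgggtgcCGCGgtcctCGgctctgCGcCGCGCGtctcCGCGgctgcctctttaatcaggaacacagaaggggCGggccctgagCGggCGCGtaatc

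**Figure D2:**
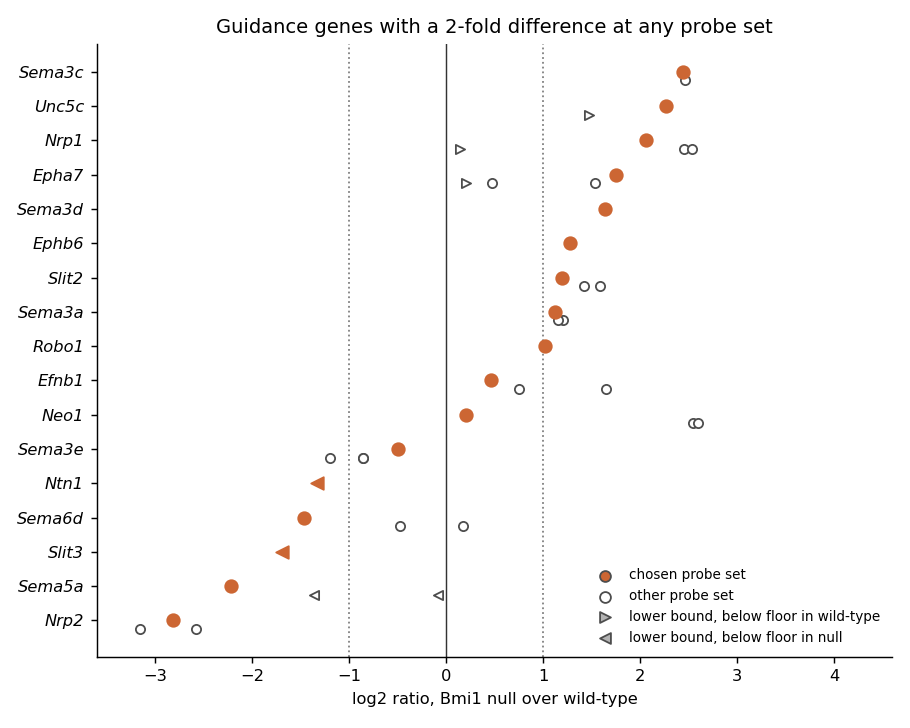
Ratios (log2, null to wild-type) for each measured probe set of the guidance genes that passed 2-fold at any probe set; the mark on each gene's line is the chosen, brightest probe set, and marks just below it are the others. The dotted lines are at 2-fold; the probe sets of Sema6d fall on both sides of 0, and those of Neo1 lie from 0.21 to 2.59.

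Of the 14 guidance genes past 2-fold, 9 had another measured probe set. In 8 of them all of these had the same direction, Sema6d being the exception, and in 5, Sema3a, Sema3c, Nrp2, Slit2 and Unc5c, all were past 2-fold as well, bounds included. Sema3d, Ephb6, Slit3, Robo1 and Ntn1 had no other measured probe set. Among the 32 genes within 2-fold, Sema3e, Efnb1 and Neo1 had another probe set past it.

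The ephrins, ligands that remain on the cell, showed no 2-fold difference in any of 7 measured genes, with a median log2 ratio of 0.15. Of the lipid-anchored A class, Efna1 was at 134 on the wild-type array and 148 on the null array, Efna2 at 406 and 657, 1.62-fold higher, Efna4 at 577 and 473, and Efna5 at 908 and 838. Of the transmembrane B class, Efnb2, a marker of arteries, was at 1906 and 2252, and its 3 other probe sets gave log2 ratios of -0.24, -0.37 and 0.05, so that no direction held. Efnb1, mutated in craniofrontonasal syndrome, was at 452 and 622, 1.38-fold higher, and its other probe sets were higher too, with log2 ratios of 0.75 and 1.64. Efnb3 was at 124 in wild-type cells and at 94.4 on the null array, under the floor, at least 1.24-fold lower.

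Among the Eph receptors, 2 of 7 measured genes passed 2-fold towards higher signal in null cells and 0 towards lower. The shares over all measured genes were 5.73% and 5.16%. Epha7 was at 290.0 on the wild-type array and 977 on the null array, 3.37-fold higher, and its other probe sets were higher at log2 ratios of 1.53, 0.47 and, as a bound, 0.20. Ephb6, which lacks kinase activity, was at 193 and 468, 2.42-fold higher. Ephb3 stayed just inside the threshold at 337 and 657, 1.95-fold higher.

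The other Eph receptors had similar or lower signals in null cells or lay near the floor. Epha2 was at 1136 on the wild-type array and 722 on the null array, 1.57-fold lower, and Ephb4, a marker of veins and the partner of Efnb2, at 412 and 395. Epha3 was below the floor in wild-type cells (44.8) and at 102 in null cells, and Epha4 was at 104 in wild-type and below the floor (95.0) in null cells. The median of the family fell on these near-floor values and was 0.03 here and 0.96 with a floor at 0.1 times the trimmed mean.

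The 2 measured slits also differed in opposite directions. Slit2 was at 3283 on the wild-type array and 7514 on the null array, 2.29-fold higher, and its other probe sets read 219 and 656 (log2 ratio 1.58) and 158 and 425 (1.43). Slit3 was at 323 in wild-type cells and at 9.51, under the floor, on the null array, at least 3.23-fold lower. Their receptor Robo1 was at 545 and 1104, 2.03-fold higher and just past the threshold. Slit2 and Robo1 were thus both higher and Slit3 lower in null cells, with 1 measured probe set each for Slit3 and Robo1. The other Robo1 probe sets were below the floor on both arrays and differed in direction, at 20.8 and 69.0 and at 89.9 and 11.9.

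The promoter windows of Slit2 and Slit3 show the third pair of paralogues on opposite sides. They are the 250 bases before the start on the plus strand of GRCm38.p6, at chr5:47982905-47983154 for Slit2 and chr11:35121206-35121455 for Slit3, again with CG dinucleotides in capitals, 25 in Slit2 and 35 in Slit3. The Slit2 window held the letters TATAAA once, near its end.
Slit2: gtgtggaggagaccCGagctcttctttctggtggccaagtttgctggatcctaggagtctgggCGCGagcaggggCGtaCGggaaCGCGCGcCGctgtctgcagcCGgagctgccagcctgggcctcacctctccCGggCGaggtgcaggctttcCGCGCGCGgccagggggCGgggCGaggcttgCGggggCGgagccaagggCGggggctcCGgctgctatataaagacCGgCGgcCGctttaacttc
Slit3: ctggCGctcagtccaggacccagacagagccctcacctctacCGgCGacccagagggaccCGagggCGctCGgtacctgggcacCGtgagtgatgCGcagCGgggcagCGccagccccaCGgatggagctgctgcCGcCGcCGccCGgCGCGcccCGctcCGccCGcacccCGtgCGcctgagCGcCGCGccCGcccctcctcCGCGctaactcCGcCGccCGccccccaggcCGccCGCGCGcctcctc

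In the netrin system 1 of 2 ligands was at least 2-fold lower and 1 of 4 receptors at least 2-fold higher at the brightest probe set. Over all measured genes 5.16% were lower and 5.73% higher. A log2 ratio above 0 was found for 3 of the 4 receptors. Ntn1, the classical attractant of commissural axons, was at 251 in wild-type cells and at 77.8, under the floor, on the null array, at least 2.51-fold lower. Ntn4, a basement membrane netrin, was at 175 and 159.8, a log2 ratio of -0.13. Unc5c, a repulsive netrin receptor, was at 208 on the wild-type array and 1002 on the null array, 4.80-fold higher, and its other probe set read 44.9, below the floor, and 277, at least 2.77-fold higher. Unc5b was at 2538 and 2276, 1.12-fold lower, while its other probe set had a log2 ratio of 0.10.

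Dcc and neogenin are the attractive receptors of the netrins. Dcc was below the floor in wild-type cells (76.4) and at 120.0 in null cells, at least 1.20-fold higher. Neo1 was at 774 and 895, 1.16-fold higher, at its brightest probe set, which the array's maker marks as able to hybridise with other transcripts. Another 2 probe sets of Neo1 read 306 and 1787 (log2 ratio 2.54) and 124 and 752 (2.59), and 2 were not measured. The size of the Neo1 difference therefore depends on the probe set, while all 3 measured ones were higher in null cells.

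Ligands and receptors were compared within each system by their medians. In the semaphorin system the median log2 ratio was 0.27 over 15 ligands and 0.47 over 8 receptors. In the ephrin system it was 0.15 over 7 ligands and 0.03 over 7 receptors, but over the alternative settings the receptor median ran from 0.02 to 0.96 and the ligand median from -0.08 to 0.24. In the slit system 2 ligands had a median of -0.25, between Slit2 and Slit3, beside 1.02 for Robo1 alone. In the netrin system it was -0.73 over 2 ligands and 0.24 over 4 receptors. Over all systems 4 of 26 ligands were at least 2-fold higher and 4 lower, and 5 of 20 receptors higher and 1 lower. Among all measured genes 5.73% were higher and 5.16% lower. Slit3 and Ntn1, among the lower ligands, are bounds that fell inside 2-fold with a floor at 0.4 times the trimmed mean. No order of ligands and receptors was tested, and the slit and netrin values rest on 1 to 4 genes.

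**Figure D3:**
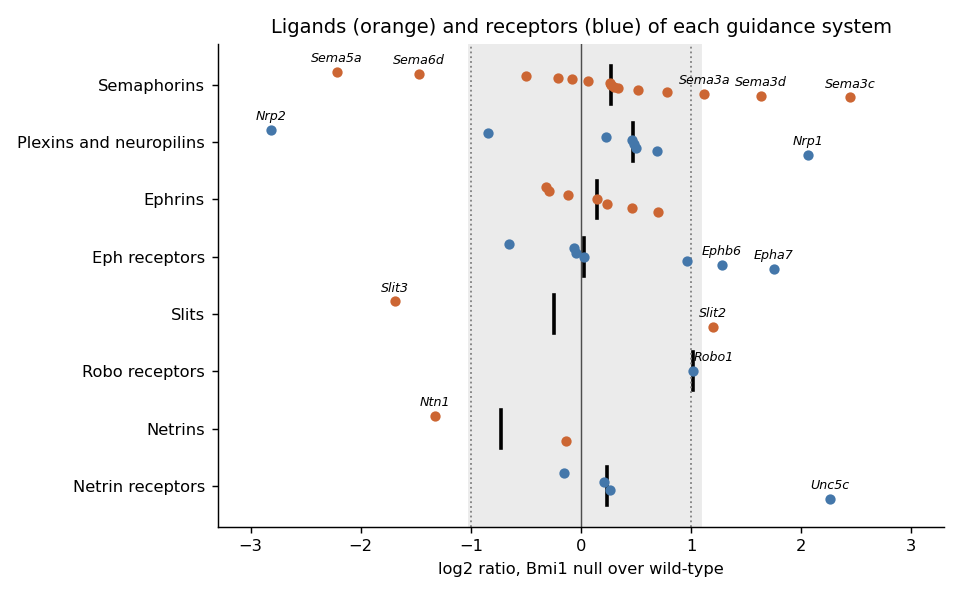
Log2 ratio, null over wild-type, of the 46 measured guidance genes as points by system, ligands in orange and receptors in blue, with the median of each row as a black bar; bounds are drawn at the bound. The grey band spans the 5th to 95th percentile of all measured genes, -1.01 to 1.09, and the dotted lines are at 2-fold; genes past 2-fold are named.

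Promoter windows were found for 44 of the 51 guidance genes, 58 windows in all. They held a median of 16 CG dinucleotides (1 to 45), where the 18110 windows of all genes with a probe set held 12. The median was 23 over the 10 windows of members at least 2-fold higher, 17 over the 5 of those lower and 16 over the 33 of those within 2-fold. The letters GGGCGG on either strand, the GC box, which itself holds a CG, were in 72.4% of the 58 windows and in 48.3% of those of all genes with a probe set. TATAAA was in 3.45% and 8.81%, and CCAAT in 25.9% and 34.7%. Among the 6 windows shown, GGGCGG occurred 3 times for Sema3c, 2 for Sema3e, 1 for Nrp1, 5 for Nrp2, 3 for Slit2 and 6 for Slit3. The CG count did not order the 3 pairs in 1 way: the higher gene had more in the semaphorin pair and fewer in the neuropilin and slit pairs. The order in the semaphorin pair rests on the choice of Sema3c. The windows of Sema3a and Sema3d, also higher in null cells, held 2 and 4 CG dinucleotides, fewer than the 7 of Sema3e.

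Other genes of the pathways were read from lists of their own. Of 21 further family members, such as Sema3g, Plxna4 and Slit1, 7 were measured and 0 differed at least 2-fold, with log2 ratios from -0.23 to 0.34. Sema5b (41.1 and 108), Plxna4, Epha1 (117 and 71.8) and Robo4 were below the floor on 1 array. Their ratios, the -0.23 of Epha1 included, are bounds that cannot show whether they passed 2-fold. Of 40 effectors inside the cell, 35 were measured, of which 5 were past 2-fold upwards and 1 downwards around a median log2 ratio of -0.02. The shares of all measured genes were 5.73% upwards and 5.16% downwards. Rnd3, a GTPase that lacks GTP hydrolysis and opposes RhoA, was at 382 on the wild-type array and 6399 on the null array, 16.8-fold higher. Ablim1, an actin-binding protein of the netrin pathway, was 3.87-fold higher (128 and 496) and Mical1, an oxidase that disassembles actin downstream of plexins, 3.50-fold (201 and 704). Fyn, a kinase downstream of plexin-A and DCC, was at 1892 and 759, 2.49-fold lower. Enah and Mical2, named after their values were seen, were 2.14-fold and 2.07-fold higher, and the core GTPases Rhoa, Rac1 and Cdc42, also named so, had log2 ratios of -0.02, -0.02 and -0.11.

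Of 18 measured co-receptors and other partners, 5 were at least 2-fold lower and 1 was higher, at a median log2 ratio of -0.06. Of all measured genes 5.16% were lower and 5.73% higher at this threshold. Rgma, a neogenin ligand, was at 341 in wild-type cells and at 79.2 on the null array, under the floor, at least 3.41-fold lower. L1cam and Chl1, adhesion molecules that pair with neuropilin-1, were at 436 and 155 (2.81-fold lower) and at 373 and 148 (2.52-fold lower). Gpc1, a heparan sulfate proteoglycan that binds slits, was at 905 and 385, 2.35-fold lower. Lrig1, at 1550 and 677, and Dag1, a slit-binding dystroglycan at 2353 and 4838, were named after their values were seen. Nrp1 and the semaphorin Sema3a were thus higher in null cells while L1cam and Chl1, named here because they passed 2-fold, were lower. Other genes of this list stayed within 2-fold, with log2 ratios of 0.11 for Itgb1, 0.46 for Kdr, -0.11 for Met and -0.80 for Vegfa.

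**Figure D4:**
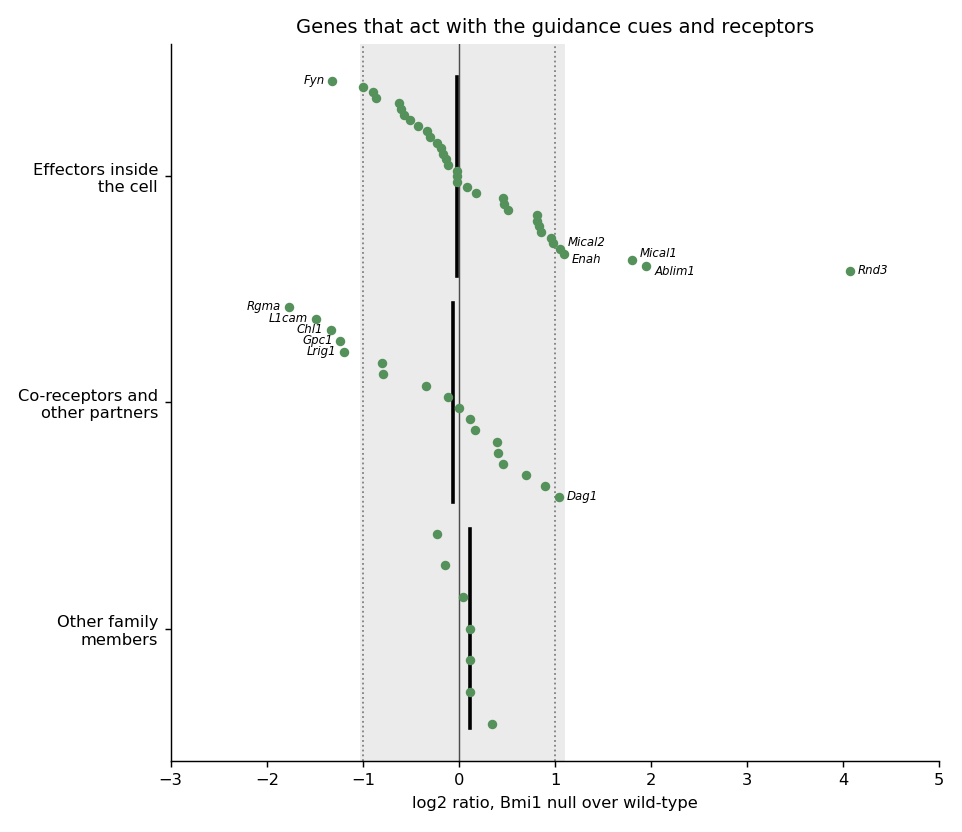
Log2 ratio, null over wild-type, of the measured effectors, co-receptors and further family members as points, with the median of each list as a black bar; genes past 2-fold (dotted lines) are named and the grey band spans the 5th to 95th percentile of all measured genes. Rnd3 stands farthest out at 4.07, and no further family member leaves the band, with bounds drawn at the bound.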

How the data were processed

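Total RNA of 1 Bmi1 wild-type and 1 Bmi1 null MEF culture was hybridised to 1 Affymetrix mouse array each. The authors derived linear intensity values with MAS5, and the deposited intensities had a 2% trimmed mean of 500 on both arrays, so any shift common to most genes is removed. No detection calls were used.

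Of 45101 probe sets, 34958 were annotated to 1 gene; these gave 18194 genes, with 1 probe set per gene, that of highest mean log2 signal over both arrays. The 50 matched members had 127 probe sets, whose Entrez identifiers were all found in the RefSeq table (GRCm38.p6). The floor was 0.2 times the trimmed mean. Alternatives were no floor, floors of 0.1 and 0.4, a pseudocount, the mean of probe sets, no suffixed probe sets, quantile scaling and median centring. Groups came from the labels, and no p-value is given, since each group had 1 array. All members were named, and from other lists up to 4 genes past 2-fold, largest first. The members and lists were chosen with earlier results of these data known. The ratio step was tested on simulated data. Sequences are RefSeq's. Python 3.11.15, pandas 2.3.3, numpy 2.4.6, scipy 1.17.1 and matplotlib 3.10.9 were used.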

Additional observations from a re-analysis of the deposited data

How the results depend on the processing

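No paired analysis was possible because each group had 1 array, and for the same reason no replicate could be left out. Of the 14 guidance genes past 2-fold, 9 were so under every alternative run: Sema3a, Sema3c, Sema3d, Sema5a, Nrp1, Nrp2, Ephb6, Slit2 and Unc5c. The number at least 2-fold higher ran from 9 to 12 and lower from 3 to 7. Sema3b (log2 ratio 1.11), Sema4f (2.14) and Epha3 (1.19) came past 2-fold without a floor, and also with a floor at 0.1. Sema4f did so with a pseudocount as well (1.14). Efnb1 (1.64) and Neo1 (2.59) came past it without suffixed probe sets, and Neo1 (1.78) with the mean of probe sets. Without a floor the genes not measured here enter too. Sema6d (log2 ratio -0.59) and Epha7 (0.99) fell inside 2-fold with the mean of probe sets, Robo1 (0.96) with a pseudocount, and Slit3 (-0.69) and Ntn1 (-0.33) with a floor at 0.4 times the trimmed mean, where 3 genes were lower, since a higher floor shrinks bounds. The median log2 ratio of Eph receptors was 0.58 without a floor, 0.96 with a floor at 0.1, 0.96 at 0.4, 0.39 with a pseudocount, 0.96 without suffixed probe sets and 0.48 with quantile scaling. The slit median was -1.95 without a floor, -0.75 with a floor at 0.1, 0.25 at 0.4 and -0.73 with a pseudocount. The Robo median turned to -1.02 without a floor, where Robo2 enters, and was 0.26 with a pseudocount. The netrin median was -0.33 with a floor at 0.4, and that of netrin receptors 1.02 with the mean of probe sets and 1.26 without suffixed probe sets, where Neo1 moves. The median of all genes shifted by less than 0.1 under each alternative. Of 353 values of single guidance genes under the alternatives, 3 had the other sign, all of genes within 2-fold: Efnb2 at -0.08 (0.24 at its brightest probe set) and Sema3f at -0.0023 with the mean of probe sets, and Sema3f at -0.15 (0.07 at its brightest) without suffixed probe sets. Many of the 353 could not change sign. A gene above the floor keeps its ratio under a lower floor or none, and 1 measured probe set is its own mean. The sign of a bound follows from which array was bright. The 3 sign changes and the 9 genes that stayed past 2-fold therefore measure little of the uncertainty. Signals near the floor and the 2 arrays limit what can be read.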
